A study of Mus musculus with 6 samples.

Results

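Serine synthesis and one-carbon metabolism were followed through 10 genes in cultured mouse chondrocytes, the cells of cartilage, after knockdown of the glycolytic enzyme pyruvate kinase M2. The genes were picked by name for their place in the pathway, and all 10 were found among the 55416 genes of the expression table. They are the serine synthesis enzymes Phgdh, Psat1 and Psph, the cytosolic folate enzymes Shmt1 and Mthfd1, the mitochondrial folate enzymes Shmt2, Mthfd2, Mthfd1l and Aldh1l2, and the neutral amino acid transporter Slc1a4. RNA-seq was made from 6 libraries of primary chondrocytes of mouse knee joints, grown in DMEM/F12 medium with serum. The labels call the joints neonatal, whereas the study's methods describe chondrocytes from mice some weeks old, so the age of the animals is unsettled. The 3 siNC libraries came from wild-type cells given a control siRNA, and the 3 siPkm2 libraries from such cells given an siRNA against Pkm2. Groups follow the titles, since the genotype labels of the siPkm2 libraries differ in the number after PKM. An siRNA lowers a transcript for a time and leaves the gene in place, and the siRNA used in the sequenced cultures was not given in the sources used here. Nothing in the labels ties a library to a separate animal or isolation, so the p-values measure the spread between these libraries, which may be technical.

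Serine is made from the glycolytic intermediate 3-phosphoglycerate, which leaves glycolysis upstream of pyruvate kinase. PHGDH oxidises it, PSAT1 adds an amino group taken from glutamate, and PSPH removes the phosphate. SHMT then splits serine into glycine and a methylene group carried on folate, and the MTHFD and ALDH1L enzymes oxidise that group to formate or carbon dioxide, in the cytosol or in mitochondria. The formate feeds purine and thymidylate synthesis. Several of these genes are textbook targets of ATF4, the transcription factor of the amino acid and integrated stress responses, and chondrocytes need glycine in quantity for collagen.

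Total counts lay between 22316996 and 25691029 per library. Pkm, the targeted gene, had levels of 2335, 2746 and 1674 CPM in siNC replicates 1, 2 and 3 and of 336, 541 and 309 CPM in siPkm2, where CPM are counts brought to a common library size by TMM factors. The groups did not overlap, and the log2 fold change was -2.51 (SE 0.33, edgeR quasi-likelihood adjusted p = 0.0738), or -2.53 with the replicate number as a block (adjusted p = 0.00932). Counts are per gene, so the M1 and M2 transcripts were not separated. The defining markers of chondrocytes were present in every library, but their summed level was 58388, 11852 and 56885 CPM in siNC and 50659, 16583 and 49273 CPM in siPkm2. Col2a1 carried much of that sum, with 36071 CPM in siNC replicate 1. Of the 13 markers, 7 were higher and 0 lower in siPkm2 in all 3 pairs of the same replicate number, against 30.5% and 30.6% of all genes. Their median blocked log2 fold change was 0.31. All 13 of the list were lowest in replicate 2 of both groups. Libraries of replicate 2 thus stood apart in both groups, and for some genes the blocked results are also given without them.

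The promoters of the genes were searched for the letters of 2 known elements. RefSeq windows on GRCm38.p6, from 250 bases before to 50 bases after a start, were matched by symbol for 9 of the 10 genes, with 10 windows since Psat1 has 2. The letters TGATGNAA, the pattern of the composite C/EBP-ATF element that ATF4 binds, were sought on both strands and stood in 1 of the 10 windows, that of Slc1a4, against 1304 of all 32851 windows (3.97%). The E-box CACGTG stood in 0 of the 10 windows and in 7.15% of all windows. The window of Slc1a4 is shown with the match in capitals, which lies on the minus strand of the window at its bases 247 to 254. Those of Psat1 and Psph are shown because these enzymes catalyse consecutive steps and changed in opposite directions in the fit with the replicate block, and they hold no match and no capitals.
Slc1a4 (chr11:20332664-20332963, minus strand): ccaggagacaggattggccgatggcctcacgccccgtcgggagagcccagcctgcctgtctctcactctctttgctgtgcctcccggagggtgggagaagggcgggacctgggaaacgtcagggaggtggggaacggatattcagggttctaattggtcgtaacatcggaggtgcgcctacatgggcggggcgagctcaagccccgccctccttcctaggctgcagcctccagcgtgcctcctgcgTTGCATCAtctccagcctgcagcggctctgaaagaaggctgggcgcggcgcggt
Psat1 (chr19:15925010-15925309, minus strand): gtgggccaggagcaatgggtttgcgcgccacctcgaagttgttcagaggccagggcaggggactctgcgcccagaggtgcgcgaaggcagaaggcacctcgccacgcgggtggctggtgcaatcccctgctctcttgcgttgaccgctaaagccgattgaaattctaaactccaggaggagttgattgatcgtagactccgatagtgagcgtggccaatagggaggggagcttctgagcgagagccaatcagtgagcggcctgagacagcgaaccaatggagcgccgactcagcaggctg
Psph (chr5:129787204-129787503, minus strand): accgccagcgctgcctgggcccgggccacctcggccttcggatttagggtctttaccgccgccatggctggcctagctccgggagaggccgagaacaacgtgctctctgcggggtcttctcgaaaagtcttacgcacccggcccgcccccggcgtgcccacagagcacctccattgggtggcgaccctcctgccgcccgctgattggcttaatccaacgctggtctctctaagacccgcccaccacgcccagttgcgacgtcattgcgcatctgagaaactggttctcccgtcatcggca
These 3 windows held 21, 20 and 28 CG dinucleotides and had GC contents of 65.0%, 60.3% and 65.0%, against medians of 7 and 52.7% over all windows. A match describes the letters only, and its absence from a window does not bear on binding elsewhere.

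Levels per transcript length, in TPM, ranked the genes in nearly the same order in both groups. In siNC, Phgdh was the highest with 143 ± 71.4 TPM (SD, n = 3), followed by Shmt2 with 135 ± 48.0, Psat1 with 104 ± 53.7, Mthfd2 with 68.8 ± 44.0, Psph with 50.9 ± 40.2 and Aldh1l2 with 47.5 ± 31.4. Below them stood Slc1a4 with 36.6 ± 8.34 TPM, Mthfd1l with 29.6 ± 2.12, Mthfd1 with 22.9 ± 1.59 and Shmt1 with 3.94 ± 0.60. Neighbours in this order overlapped between libraries down to Mthfd1l, while Mthfd1l over Mthfd1 and Mthfd1 over Shmt1 were separated by more than the spread. In siPkm2, Psph with 71.7 ± 44.7 TPM and Mthfd2 with 68.0 ± 33.2 TPM exchanged places, within that spread. Some counts were fractional, as where reads are shared between gene copies, in 6 of 6 libraries for Psph and Aldh1l2, in 4 for Phgdh and in 3 for Shmt1.

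Knockdown of Pkm2 changed none of the 10 genes past the threshold when the replicate number was left out. None passed a fold of 2 with an adjusted p under 0.05 by edgeR's quasi-likelihood test, and none passed the adjusted p alone, while over the 15269 genes tested the share was 0% by either rule. At an unadjusted p under 0.05 there were 0 of the 10 genes and 2690 of all genes, and DESeq2 without the block passed 0 of the 10 and 829 of all genes at an adjusted p under 0.05. The fold changes leaned upwards, with 7 of 10 above 0 and a median log2 fold change of 0.22, against -0.02 over all genes tested. Leaving out 1 library moved that median, which was 0.0072 without siNC replicate 2 and -0.036 without siPkm2 replicate 1, but 0.42 without siNC replicate 1 and 0.43 without siPkm2 replicate 2.

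Libraries with the same replicate number deviated together, and a fit with that number as a block brought out smaller changes. With the block, Psph and Mthfd1 were higher and Psat1 was lower in siPkm2 at an adjusted p under 0.05, and none of the 10 passed a fold of 2. Of all genes tested, 5.83% passed with the fold, 12.3% were higher and 10.8% lower without it, so 2 of 10 higher and 1 of 10 lower lay near the background. DESeq2 with the block passed the same 3 genes, and 3889 of the 14459 genes for which it gave an adjusted p. Within pairs, 6 of the 10 were higher in siPkm2 in all 3 pairs and 1 was lower, against 30.5% and 30.6% of all genes. The groups did not overlap for 1 gene, Mthfd1, which was higher, where 12% of all genes did not overlap upwards and 12.3% downwards.

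**Figure D1:**
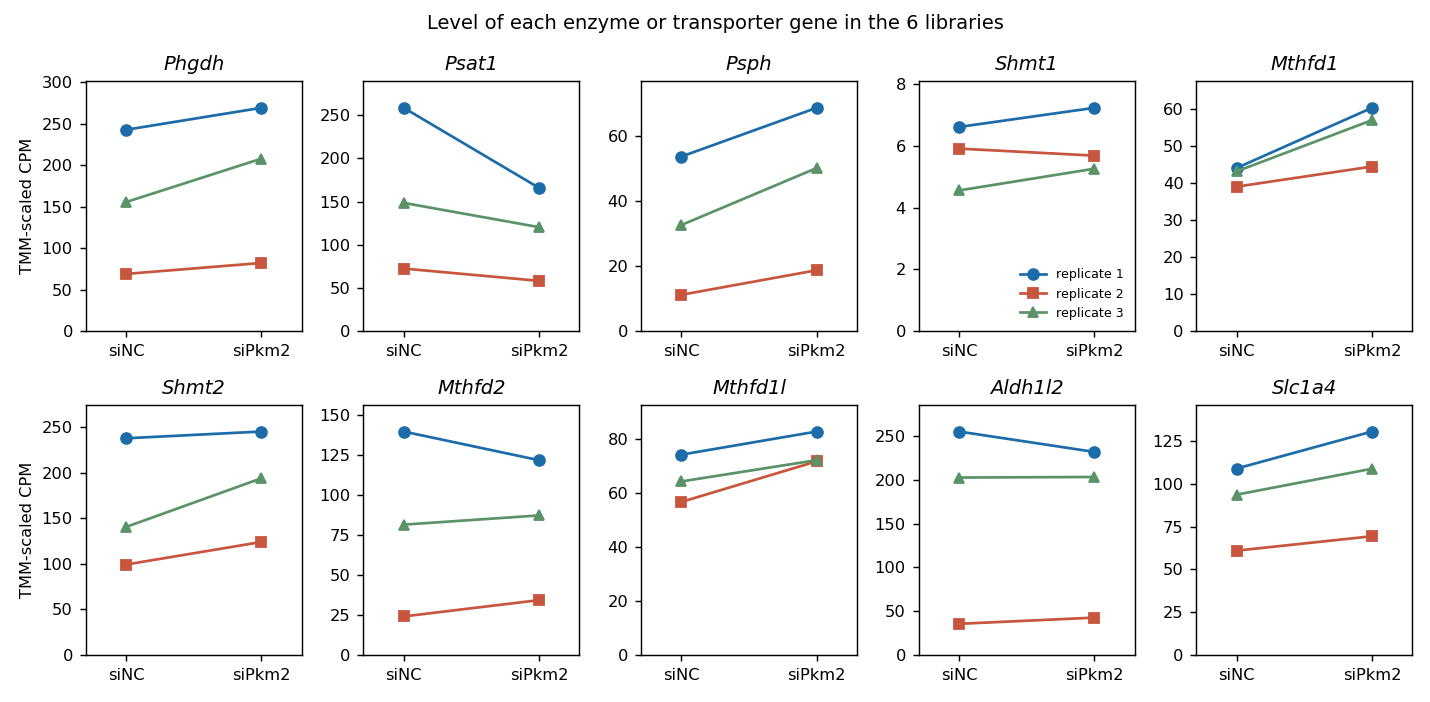
TMM-scaled CPM of each of the 10 genes (vertical axes from 0, 1 scale a panel) in siNC and siPkm2, with lines joining the libraries of 1 replicate number. The lines of replicate 2 lie lowest in 9 panels, all but Shmt1, and all 3 lines fall in the panel of Psat1 alone.

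In serine synthesis, the middle enzyme fell and the last one rose in the fit with the block. Psat1, the phosphoserine aminotransferase (chromosome 19, 15904678 to 15947337 on GRCm38), had 258, 72.5 and 148 CPM in siNC replicates 1, 2 and 3 and 166, 58.3 and 120 CPM in siPkm2. It was lower in siPkm2 in every pair, with log2 differences of -0.64, -0.31 and -0.30, although the groups overlapped because replicate 2 of siNC lay below replicates 1 and 3 of siPkm2. The log2 fold change was -0.42 with the block (SE 0.10, edgeR quasi-likelihood adjusted p = 0.0391), a change of -25.2%, and -0.48 without it (SE 0.54, adjusted p = 0.706).

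Psph, the phosphoserine phosphatase (chromosome 5, 129765558 to 129787449), had 53.7, 11.2 and 32.7 CPM in siNC and 68.7, 18.8 and 50.2 CPM in siPkm2. It was higher in each pair, with log2 differences of 0.35, 0.74 and 0.62, while the groups overlapped widely. The log2 fold change was 0.57 with the block (SE 0.11, adjusted p = 0.0232), a change of 48.1%, and 0.50 without it (SE 0.65, adjusted p = 0.753), both by edgeR's quasi-likelihood test. Phgdh, the dehydrogenase that opens the pathway (chromosome 3, 98313170 to 98339990), had 243, 69.1 and 156 CPM in siNC and 269, 82.3 and 208 CPM in siPkm2. Its pairs differed by 0.15, 0.25 and 0.42, all upwards, and the blocked log2 fold change of 0.27 did not pass (SE 0.09, edgeR adjusted p = 0.0817).

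The ratio of Psat1 to Phgdh within a library restates how their levels moved apart. This ratio of TPM and 3 others were chosen after the levels had been seen, so they are given as descriptions with no test. It was 0.755, 0.754 and 0.681 in siNC replicates 1, 2 and 3 and 0.438, 0.516 and 0.406 in siPkm2, with means of 0.730 ± 0.042 and 0.453 ± 0.057 (SD, n = 3). All siPkm2 libraries lay below all siNC libraries, by pair folds of 0.581, 0.684 and 0.596. Replicate 2 of siNC, low in both levels, had nearly the ratio of replicate 1.

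Psph to Psat1 moved the other way. The TPM ratio was 0.596, 0.306 and 0.412 in siNC and 1.11, 0.645 and 0.956 in siPkm2, again without overlap. Psph to Phgdh was higher in 3 of 3 pairs but overlapped, with means of 0.320 ± 0.115 and 0.402 ± 0.077 (SD, n = 3). Mthfd2 to Mthfd1l, the fourth ratio, had means of 2.26 ± 1.35 in siNC and 2.01 ± 0.93 in siPkm2, within their spread.

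**Figure D2:**
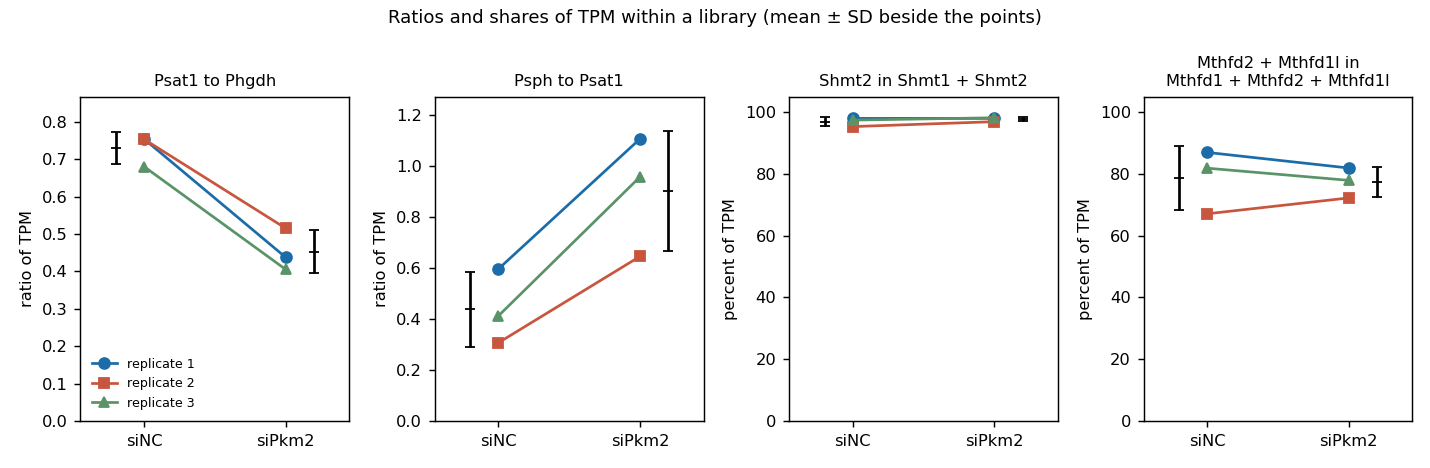
Ratios of Psat1 to Phgdh and of Psph to Psat1 and the mitochondrial shares of the SHMT and MTHFD genes, all from TPM, in each library (points, joined by replicate number) with group means ± SD (n = 3) beside them. Psat1 to Phgdh lies at 0.681 or above in siNC and at 0.516 or below in siPkm2, whereas the shares overlap.

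Among the cytosolic enzymes, Mthfd1 rose in the fit with the block and Shmt1 was the lowest of the 10 genes. Mthfd1, which interconverts the folate-bound carbon units of the cytosol (chromosome 12, 76255298 to 76319803), had 44.1, 39.0 and 43.2 CPM in siNC and 60.3, 44.5 and 57.0 CPM in siPkm2. Every siPkm2 library lay above every siNC library (exact two-sided permutation p = 0.1, the smallest possible). The blocked log2 fold change was 0.35 (SE 0.09, edgeR adjusted p = 0.0473), a change of 27.2%, and it was 0.36 without the block (SE 0.16, adjusted p = 0.300). With upper-quartile scaling or library totals in the blocked fit, Mthfd1 no longer had an adjusted p under 0.05. Shmt1, the cytosolic serine hydroxymethyltransferase (chromosome 11, 60788104 to 60811718), had 6.61, 5.91 and 4.55 CPM in siNC and 7.23, 5.68 and 5.26 CPM in siPkm2. Its pairs went both ways, with a blocked log2 fold change of 0.09 (SE 0.17, edgeR adjusted p = 0.712).

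The mitochondrial enzymes showed no change that passed. Shmt2, the mitochondrial counterpart of Shmt1 (chromosome 10, 127517123 to 127522444), had 238, 99.1 and 140 CPM in siNC and 245, 124 and 194 CPM in siPkm2, higher in all 3 pairs (blocked log2 fold change 0.28, SE 0.11, edgeR adjusted p = 0.117). Mthfd1l, which releases formate (chromosome 10, 3973118 to 4167081), had 74.4, 56.8 and 64.4 CPM in siNC and 82.9, 71.9 and 72.3 CPM in siPkm2, also higher in all 3 pairs (0.22, SE 0.08, edgeR adjusted p = 0.105). In both, the pairs shared a direction and the groups overlapped.

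Mthfd2, the methylene-folate dehydrogenase of mitochondria (chromosome 6, 83305691 to 83325908), had 140, 24.1 and 81.6 CPM in siNC and 122, 34.3 and 87.4 CPM in siPkm2. It was lower in pair 1 and higher in pairs 2 and 3, with log2 differences of -0.20, 0.51 and 0.10, so the blocked estimate of 0.13 (SE 0.14, edgeR adjusted p = 0.538) averaged opposite signs. Aldh1l2, which oxidises formyl-folate in mitochondria (chromosome 10, 83487450 to 83534140), had 256, 35.6 and 203 CPM in siNC and 232, 42.6 and 204 CPM in siPkm2. Its pairs also crossed 0, at -0.14, 0.26 and 0.0046 (blocked log2 fold change 0.04, SE 0.10, edgeR adjusted p = 0.800). Without replicate 2, the blocked estimates of Mthfd2 and Aldh1l2 had the other sign, at -0.06 and -0.08, and did not pass. Slc1a4, the transporter ASCT1 that carries serine and alanine (chromosome 11, 20302180 to 20332713), had 109, 61.0 and 93.7 CPM in siNC and 131, 69.4 and 109 CPM in siPkm2. Its 3 pairs lay close together at 0.26, 0.19 and 0.22, and the blocked change of 0.22 did not pass (SE 0.08, edgeR adjusted p = 0.0862).

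Shmt2 made up most of the SHMT transcripts, and Mthfd2 and Mthfd1l together most of their sum with Mthfd1. Shmt2 held 97.9%, 95.3% and 97.4% of the summed Shmt1 and Shmt2 TPM in siNC and 98.0%, 96.9% and 98.2% in siPkm2 (exact two-sided permutation p = 0.5). Mthfd2 and Mthfd1l together held 86.9%, 67.1% and 81.8% of the sum with Mthfd1 in siNC and 81.9%, 72.2% and 77.9% in siPkm2 (exact permutation p = 1). Both shares were lowest in replicate 2 of each group, and neither differed between the groups by more than the spread. The permutation tests did not use the pairs. Within pairs, the SHMT share was higher in siPkm2 in 3 of 3 and the share with Mthfd1 in 1 of 3. The latter share sets 2 mitochondrial genes against 1 cytosolic gene. Mthfd2 by itself lay below Mthfd1 in siNC replicate 2, at 22.5 against 24.4 TPM, and above it in every other library.

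**Figure D3:**
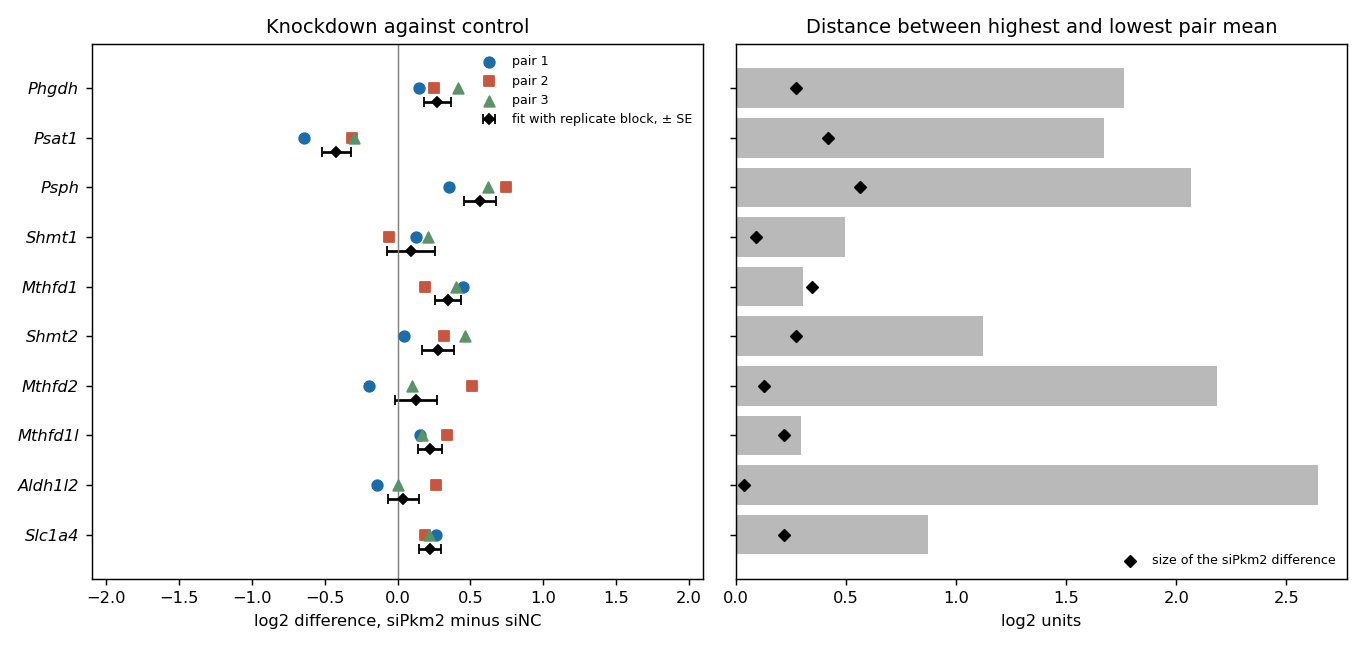
Left, log2 difference of siPkm2 minus siNC within each replicate pair (points) and the estimate of the blocked fit ± SE (diamonds). Right, log2 distance between the highest and lowest mean of a replicate pair (bars) with the size of the blocked siPkm2 difference (diamonds), which is the smaller for every gene but Mthfd1.

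Most of the 10 genes differed between replicate numbers, in the same order in both groups. In 9 of them, all but Shmt1, replicate 2 was the lowest in both groups, where 28.5% of all genes were, and the same 9 followed the order of replicate 1 over 3 over 2 in both groups, where 13.1% of all genes did. The term for the replicate number had an edgeR adjusted p under 0.05 in 7 of the 10, against 26.1% of all genes, the exceptions being Shmt1, Mthfd1 and Mthfd1l. On the TPM scale 7 of the 10 were lowest in replicate 2 of both groups, and siNC replicate 2 held the highest TPM of its group for Mthfd1 and Shmt1. This reading of the replicate number was added after the levels had been seen.

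Aldh1l2 had the widest distance, with 7.19-fold more CPM in replicate 1 than in replicate 2 in siNC and 5.45-fold more in siPkm2 (edgeR adjusted p = 0.00207 for the replicate number). Mthfd2 followed with 5.80-fold and 3.56-fold (adjusted p = 0.00614) and Psph with 4.80-fold and 3.66-fold (adjusted p = 0.00368). The highest and lowest pair means lay a median of 2.63-fold apart over the 10 genes and 1.46-fold apart over all genes tested. The median size of the blocked siPkm2 difference was 0.25 on the log2 scale over the 10 genes and 0.32 over all. The distance between pair means exceeded the siPkm2 difference in 9 of the 10, the exception being Mthfd1. The share of all genes where it did was not counted. Over all genes tested the median distance, 0.55 on the log2 scale, also exceeded the median difference of 0.32. A distance between the extremes of 3 means is another measure than 1 difference, so the count is not read as particular to these genes. Summed over the 10 genes, the level was 927, 346 and 656 TPM in siNC and 931, 385 and 741 TPM in siPkm2.

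Other genes shared this pattern of replicates. Of 22 gene identifiers of Atf4 and its targets outside the 10 genes, 17 were lowest in replicate 2 of both groups and 17 had an adjusted p under 0.05 for the replicate number. Atf4 itself had 489, 166 and 345 CPM in siNC and 441, 198 and 395 CPM in siPkm2, and Trib3, a pseudokinase gene named here after its values were seen, had 195, 15.5 and 135 CPM in siNC and 122, 27.4 and 117 CPM in siPkm2. The chondrocyte markers given above followed it too, while the summed CPM of the 10 macrophage markers was higher in replicate 2, at 75.9 and 62.0 against 8.69 to 19.9 in the other libraries. Of those markers Cd68 and Cd14 carried the difference, and Ptprc, Adgre1, C1qa and Tyrobp stood at 0.438 CPM or below in every library. The 7 osteoblast markers summed to 482, 76.1 and 299 CPM in siNC and 209, 82.1 and 115 CPM in siPkm2, lowest in replicate 2 of each group and lower in siPkm2 in pairs 1 and 3. Of them Ibsp, named after its values were seen, was called with the block at a log2 fold change of -1.45 (SE 0.30, edgeR adjusted p = 0.0278). The 8 fibroblast markers summed to 9187, 11030 and 16742 CPM in siNC and 7247, 14736 and 13318 CPM in siPkm2. Of them Dcn, also named after its values were seen, was called at 1.28 (SE 0.18, edgeR adjusted p = 0.0148), higher in all 3 pairs and highest in replicate 2 of both groups. The fibroblast list as a whole leaned the other way, with a median blocked log2 fold change of -0.35. Of its 8 genes, 1 was higher and 1 lower in all 3 pairs, and 2 were highest in replicate 2 of both groups. Summed levels of 6 endothelial markers lay between 1.31 and 3.42 CPM and of 7 muscle markers between 6.47 and 13.3 CPM. The 12 proliferation markers summed to 1006, 619 and 591 CPM in siNC and 758, 579 and 482 CPM in siPkm2. They went both ways, with 4 higher and 8 lower in all 3 pairs, where 30.5% and 30.6% of all genes were. Of them Aurka, named after its values were seen, was called with the block at -1.08 (SE 0.125, edgeR adjusted p = 0.0122). The part of any of these marker lists in the levels of the 10 genes was not tested, and fewer cells of a type cannot be told apart from less RNA per cell.

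Aldh1l1, the cytosolic counterpart of Aldh1l2, ran opposite to it. This gene, named after its values were seen, had 3.08, 42.9 and 9.81 CPM in siNC and 2.66, 49.4 and 9.09 CPM in siPkm2, highest in replicate 2 of both groups, as were 26.9% of all genes. The replicate number had an adjusted p of 0.00155 by edgeR's quasi-likelihood test, and the blocked log2 fold change between the groups was -0.01 (SE 0.13, adjusted p = 0.964). Replicate 2 thus held the least Aldh1l2 and the most Aldh1l1 in each group.

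**Figure D4:**
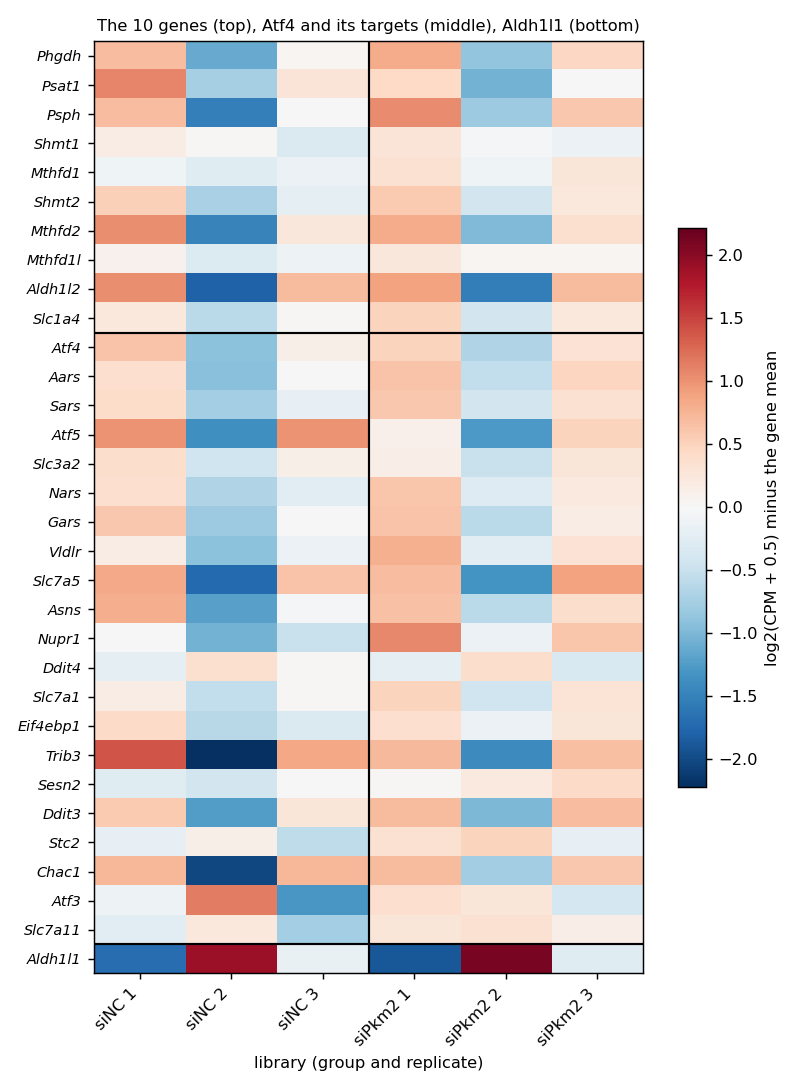
log2(CPM + 0.5) minus the mean of each gene over the 6 libraries (colour) for the 10 genes (top block), Atf4 and its targets (middle block) and Aldh1l1 (bottom), with libraries in columns. Within each group, replicate 2 is the lowest column for 9 of the 10 genes, all but Shmt1, and the highest for Aldh1l1.

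Genes most like the members were sought over the 6 libraries by the root mean square difference of log2 CPM after centring each gene, as a description. Nearest to Phgdh were Gm28438 at 0.08, Chd1l at 0.11 and Col9a2 at 0.12, where the own spread of Phgdh was 0.76 and the closest of the 10 genes was Psph at 0.21. Nearest to Psat1 were Tfcp2l1 at 0.05, Zfp185 at 0.14 and Fancl at 0.15, and the closest of the 10 was Phgdh at 0.36. Nearest to Mthfd2 were B3galt1 at 0.16, Acot2 at 0.17 and Gm10182 at 0.18, with Psph at 0.23. Slc1a4 lay nearest to Slc7a1, a cationic amino acid transporter, at 0.05, then Lypla1 and Ostc at 0.06, with Shmt2 at 0.17.

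Genes around the pathway were read from lists by function in the fit with the block. Without the block no gene of the whole table passed in edgeR's main fit, while 829 had an adjusted p under 0.05 with DESeq2. With the block, folate cycle and handling genes numbered 1 higher and 1 lower of 12 tested. The lower was Mthfs, which returns formyl-folate to the cycle, at a log2 fold change of -0.74 (SE 0.20, edgeR adjusted p = 0.0499). Mthfs, at 5.77 CPM or below in every library, did not pass in the DESeq2 fit with the block (adjusted p = 0.0772). Tyms, thymidylate synthase, had 0.43 and did not pass. In glycine cleavage and serine breakdown, 1 of 8 was higher and 2 were lower. The lower ones were Gcsh, the lipoyl carrier of the cleavage system, at -0.78 (SE 0.11, edgeR adjusted p = 0.0149), and Srr, serine racemase, at -0.52 (SE 0.11, adjusted p = 0.0279). Gldc, at 3.11 CPM or below in every library, had 1.57 and did not pass. Gcat stood under 2 gene identifiers, both among the 8 tested, which had 0.43 and 0.20 and did not pass.

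Of the serine and glycine transporters, 3 of 8 tested genes fell with the block and 0 rose, where 10.8% of all genes fell and 12.3% rose. Slc38a4, a sodium-coupled neutral amino acid transporter and the 1 gene of this list past a fold of 2, had 58.7, 38.2 and 63.0 CPM in siNC and 14.3, 23.3 and 13.8 CPM in siPkm2, without overlap. Its log2 fold change was -1.64 with the block (SE 0.31, edgeR adjusted p = 0.0226) and without it (adjusted p = 0.102). Sfxn1, which brings serine into mitochondria, had 77.0, 51.4 and 65.8 CPM in siNC and 42.7, 36.3 and 45.3 CPM in siPkm2, again without overlap (blocked log2 fold change -0.63, SE 0.10, adjusted p = 0.0176, edgeR). Slc38a2, named like Sfxn1 after its values were seen, had a blocked value of -0.53 (SE 0.09, edgeR adjusted p = 0.0176). Slc1a4, a carrier of the same amino acids, lay at 0.22 beside them.

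Purine synthesis, which takes up formyl groups, had 3 higher and 0 lower genes of 13 tested, beside 12.3% higher and 10.8% lower over all genes. Ppat, the entry enzyme, had a blocked log2 fold change of 0.74 (SE 0.12, edgeR adjusted p = 0.0185), and Atic, a formyl-group acceptor, 0.47 (SE 0.11, adjusted p = 0.0332). The third was Paics, at 0.44. Adssl1 and Impdh2 had -0.50 and -0.36 and did not pass. In the methionine cycle and transsulfuration, 1 of 10 was higher, Mat2a at 0.47, and 1 was lower, Ahcyl1 at -0.80 (SE 0.13, edgeR adjusted p = 0.0176). Gnmt, Cbs and Mtrr at 0.80, 0.49 and -0.36 did not pass. Of these, Gnmt stood at 0.57 CPM or below and Cbs at 2.06 CPM or below in every library.

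Lipid genes that use or carry serine moved both ways, with 2 higher and 2 lower of 8 tested in the blocked fit. Sptlc2 and Sptlc1, the catalytic and partner subunits of serine palmitoyltransferase, which opens sphingolipid synthesis, had 0.62 and 0.56 (SE 0.08 and 0.09, edgeR adjusted p = 0.0138 and 0.0183). Ptdss1, a phosphatidylserine synthase, had 55.7, 56.0 and 59.9 CPM in siNC and 36.9, 37.1 and 37.5 CPM in siPkm2 (-0.62, SE 0.08, edgeR adjusted p = 0.0133), and Serinc3 had -0.44 (adjusted p = 0.0215). None of these 4 genes passed the term for the replicate number, with edgeR adjusted p values of 0.0612 or above. Of the ATF4 list, 6 of 22 were higher and 0 lower, beside the same 12.3% and 10.8% over all genes, and the 1 past a fold of 2 was Nupr1, a stress-response gene, at 1.04 (SE 0.09, edgeR adjusted p = 0.0107). Median blocked log2 fold changes were -0.04 for the folate list, 0.08 for transport, 0.16 for glycine cleavage and for the methionine cycle, 0.08 for purine synthesis, -0.09 for the lipid list and 0.28 for the ATF4 list, beside -0.01 over all genes tested and 0.22 over the 10 genes.

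**Figure D5:**
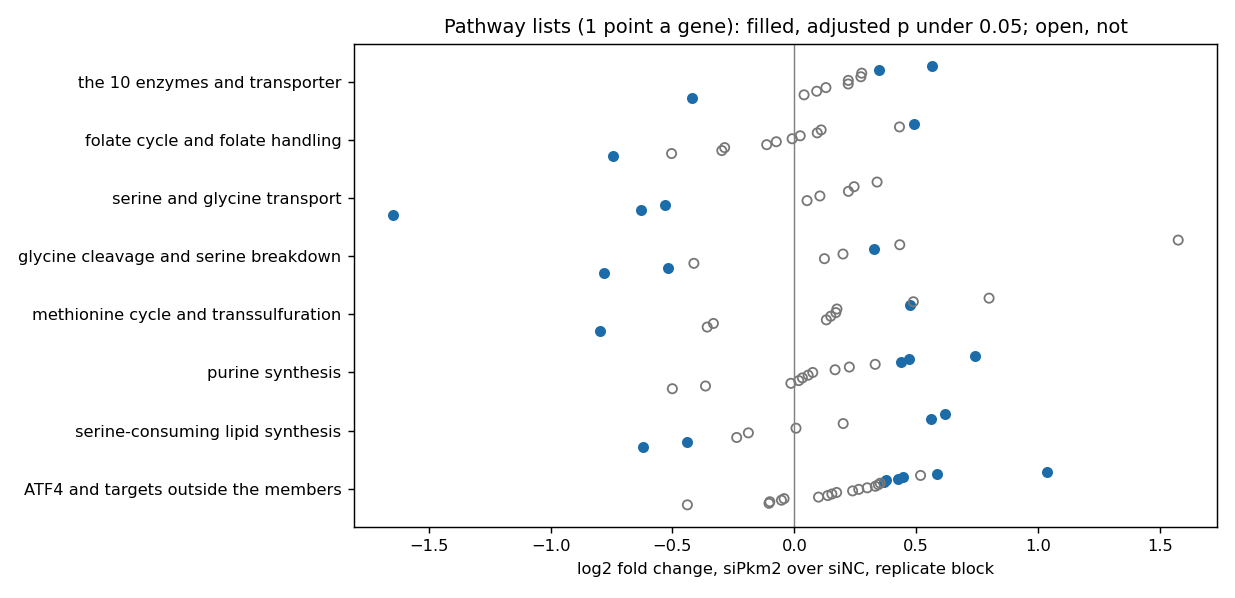
Blocked log2 fold change of siPkm2 over siNC (horizontal axis) for each tested gene of the 10 and of 7 lists of neighbouring pathways, filled where the edgeR adjusted p was under 0.05. Slc38a4 lies farthest left at -1.64, and the 10 genes lie between -0.42 and 0.57.

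Psat1, Psph and Mthfd1, which passed the adjusted p but not the fold in the blocked fit, were also read with 1 replicate number left out of both groups. Without replicate 2 the 3 genes passed again, at log2 fold changes of -0.48, 0.47 and 0.42. They were 3 of the 10, but 39.1% of the 15185 genes then tested passed too. Without replicate 1 or without replicate 3 no gene passed, among the 10 or among the 15740 and 15545 genes then tested, so the loss is not particular to these 3. Their log2 fold changes were -0.31, 0.68 and 0.29 without replicate 1 and -0.48, 0.54 and 0.32 without replicate 3, for Psat1, Psph and Mthfd1 in turn, against -0.42, 0.57 and 0.35 with all pairs. In those fits of 2 pairs, 2 of the 10 had an unadjusted p under 0.05, Psph and Shmt2 without replicate 1 and Psat1 and Psph without replicate 3. The share of all genes at that p in those fits was not counted, so no weight is placed on these counts. Psat1 stayed lower and Psph and Mthfd1 stayed higher under each scaling tried with the block.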

How the data were processed

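RNA-seq libraries of primary mouse chondrocytes (3 siNC, 3 siPkm2) were analysed from the tables the authors deposited. The authors deposited estimated counts, not normalized and in part fractional, for 55416 genes, and TPM values, scaled per library. Their own fold changes, log2 fold changes, p-values and group means were not used. The aligner, counter and annotation are not given in the sources used here. Total counts were 22316996 to 25691029 per library, and no pair of libraries of a group agreed within sampling noise.

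Counts were rounded and fitted in R 4.3.3 with edgeR 4.0.16 (filterByExpr, TMM factors, quasi-likelihood test, Benjamini-Hochberg adjustment over 15269 genes), without the replicate number as the main fit and with it as a block as the alternative. Levels are TMM-scaled CPM, and log2 values of single libraries use a prior count of 0.5. A gene was called at a fold over 2 and an adjusted p under 0.05. Same-numbered libraries had deviations from the group means that correlated at 0.62, 0.73 and 0.60 across genes, and different numbers at 0.13 or below, so the numbers were read as pairs, from the data and not the labels. Single values were compared by exact two-sided permutation tests. Alternatives used other scalings and filters, DESeq2 1.42.0, limma 3.58.1 on log2 TPM, and each library left out. Blocked fits with other scalings, the TPM ratios and the test of the replicate number were added after seeing the data.

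The 10 genes and all lists were chosen with earlier results of these data known. Named were the 10 genes, Pkm, the called genes of each pathway list or else its 2 largest rises and falls without the block, and the 3 genes nearest to Phgdh, Psat1, Mthfd2 and Slc1a4. Some genes that this rule names are not reported here. Positions were matched by gene identifier in GENCODE M21 on GRCm38, and promoter windows by symbol in RefSeq GRCm38.p6. Tests were checked on simulated counts.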

Additional observations from a re-analysis of the deposited data

How the results depend on the processing

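No gene among the 10 passed a fold of 2 with an adjusted p under 0.05 under any setting run. Without the block, genes called over the whole table numbered 0, and 3 with upper-quartile factors, with library totals or with at least 10 counts in every library, 9 without a filter, 430 with DESeq2 and 1 with each of the 3 limma fits on TPM. With the replicate block they numbered 890, and 900, 935 and 918 with RLE factors, upper-quartile factors and library totals, and 1017 with DESeq2. Leaving out replicates gave 0 to 1639 genes called and 0 to 3 of the 10 at an adjusted p under 0.05. The 1639 came from the blocked fit without replicate 2, and 105 from the fit without siNC replicate 2. Of the 10 genes, 3 passed the adjusted p alone with the replicate block, with its DESeq2 form and with its RLE factors, and 2 with its upper-quartile factors or library totals, where Mthfd1 was lost. Over all genes, 3524, 3889, 3556, 3539 and 3496 passed it in these fits in turn. The median log2 fold change of the 10 was 0.15 with upper-quartile factors, with or without the block, and -0.036 to 0.43 with replicates left out. Pkm passed at -2.50 with DESeq2, at -2.53 with the replicate block, at -2.52 with its DESeq2 form and its RLE factors, at -2.59 with its upper-quartile factors and at -2.56 with its library totals, and ranged from -2.80 to -2.34 with replicates left out, at -2.63 in the blocked fit without replicate 2. Psat1 had 0.06 without siNC replicate 1 in the unblocked fit. The log2 difference of the Psat1 to Phgdh ratio, -0.69, stayed between -0.79 and -0.62 with replicates left out and was -0.69 from counts and -0.75 as the median within pairs. Both mitochondrial shares moved by less than the spread between libraries. The cause of these shifts was not tested. With 3 libraries a group, exact tests of single values cannot go below 0.1.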
